A study of Mus musculus with 38 samples.

Results

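Marrow of 7 mice with leukaemia started by the fusion oncogene MLL-ENL was compared with marrow of 4 normal mice, taking every array whose label names that oncogene and every array labelled normal, 11 of the study's 38 arrays. In the MLL-ENL group, marrow progenitors carrying the c-kit receptor had been infected with a retrovirus bearing MLL-ENL and transplanted into syngeneic C57BL/6 recipients given lethal irradiation, and marrow was collected when the leukaemic animals were euthanised. The normal marrow came from wild-type C57BL/6 mice, for which the labels describe no virus, transplant or irradiation, and animals of either sex were used in both groups. All marrow was cryopreserved and its total RNA was taken with Trizol. Age, the viral promoter, the sex of each mouse and whether mice received cells of 1 infection are not stated in the labels. The 7 leukaemias are treated as 7 samples. If some of them share an infection they are not independent, and the standard errors and p-values may be too small. Standard errors and p-values of gene differences rest on the spread within groups, pooled over all 6 groups of the 38 arrays. Leukaemias made in the same way with MLL-AF1p (9 mice), MLL-AF10 (8), MLL-GAS7 (5) and MLL-AF9 (5) are described only where MLL-ENL is set against them. Their arrays also enter the choice of probe sets and the fit behind every difference from Normal marrow. Genes on chromosome X (401) and Y (7), and 73 that were mitochondrial, unplaced or unmatched, were set aside, which left 12853 autosomal genes.

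MLL, the product of the mouse gene Kmt2a, is a histone methyltransferase that keeps homeobox genes active in early blood cells. In leukaemia its front part is joined to a partner protein, here ENL, the product of Mllt1, which reads acetylated histones and belongs to the complexes that help RNA polymerase elongate transcripts. MLL fusions are known for holding the HoxA genes and Meis1 on in myeloid progenitors, which then keep dividing without maturing. Normal marrow is a mixture of maturing red cells, neutrophils, monocytes, B cells, megakaryocytes, macrophages and few progenitors. In such bulk samples a lower level may reflect fewer cells of a type or less RNA per cell, and these cannot be told apart here.

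Expression was measured with 1 Affymetrix mouse array per animal. Levels below are log2(intensity + 46.1) of the gene's brightest probe set after all arrays were brought to 1 median, and a difference is the MLL-ENL mean minus the Normal mean, with its limma standard error and a p-value adjusted by Benjamini-Hochberg over 13334 genes. A gene is called when that adjusted p is under 0.05. Before the shift, array medians were 133.7 to 153.1 in MLL-ENL and 160.1 to 184.9 in Normal marrow. In the values, 48 probe sets split the leukaemia arrays of all cohorts into 2 array sets that no label mentions. Mice MLL-ENL_701, MLL-ENL_760, MLL-ENL_702 and MLL-ENL_741 were in the first set and MLL-ENL_703, MLL-ENL_742 and MLL-ENL_774 in the second, while each Normal array lay nearer the second set in 25 to 42 of those probe sets. Mouse MLL-ENL_742 stood apart from the other MLL-ENL mice in 335 genes, against 53 to 163 genes for each other mouse. The 3′ to 5′ log2 ratio of actin was 0.27 ± 0.05 in MLL-ENL and 0.14 ± 0.06 in Normal marrow (SD, n = 7 and 4, exact permutation test over 330 splits, two-sided p = 0.0182, adjusted over 4 signs 0.0364). The 18S signal was 8.57 ± 0.79 in MLL-ENL and 7.12 ± 0.46 in Normal marrow (SD, exact permutation p = 0.0121, adjusted 0.0364). The Gapdh ratio (−0.34 in MLL-ENL and −0.25 in Normal, adjusted exact p = 0.193) and the hybridisation controls (11.54 and 11.53 likewise, adjusted exact p = 0.994) did not pass. The part of these signs and of the array sets in single genes was not tested beyond the fits within a set given below.

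MLL-ENL marrow differed from Normal marrow in a large share of the genes measured: 5338 of 12853 were called (41.5%), 3898 of them higher (30.3%) and 1440 lower (11.2%). The rises were many and modest and the falls fewer and deeper. A change of 2-fold or more was reached by 1179 called rises and 871 called falls, and one of 8-fold or more by 19 rises and 128 falls. The 7 and 4 values did not overlap in 4118 genes (32.0%). With only the MLL-ENL and Normal arrays in the fit, 5916 genes were called. The split between directions depended on the scaling, since the median gene differed by 0.23 on the scale used and by 0.03 with the values as deposited. Rises made up 73.0% of calls on the scale used, 56.9% with values as deposited and 60.6% by quantile normalization. A list's median is therefore best read against 0.23, and its counts against the 41.5% of all genes called, 30.3% higher and 11.2% lower. With the 3 MLL-ENL mice of the second array set alone against the same Normal arrays 4430 genes were called, 4035 of them among the 5338, and 4 MLL-ENL mice of the first set gave 4869 calls, 4570 of them shared.

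**Figure D1:**
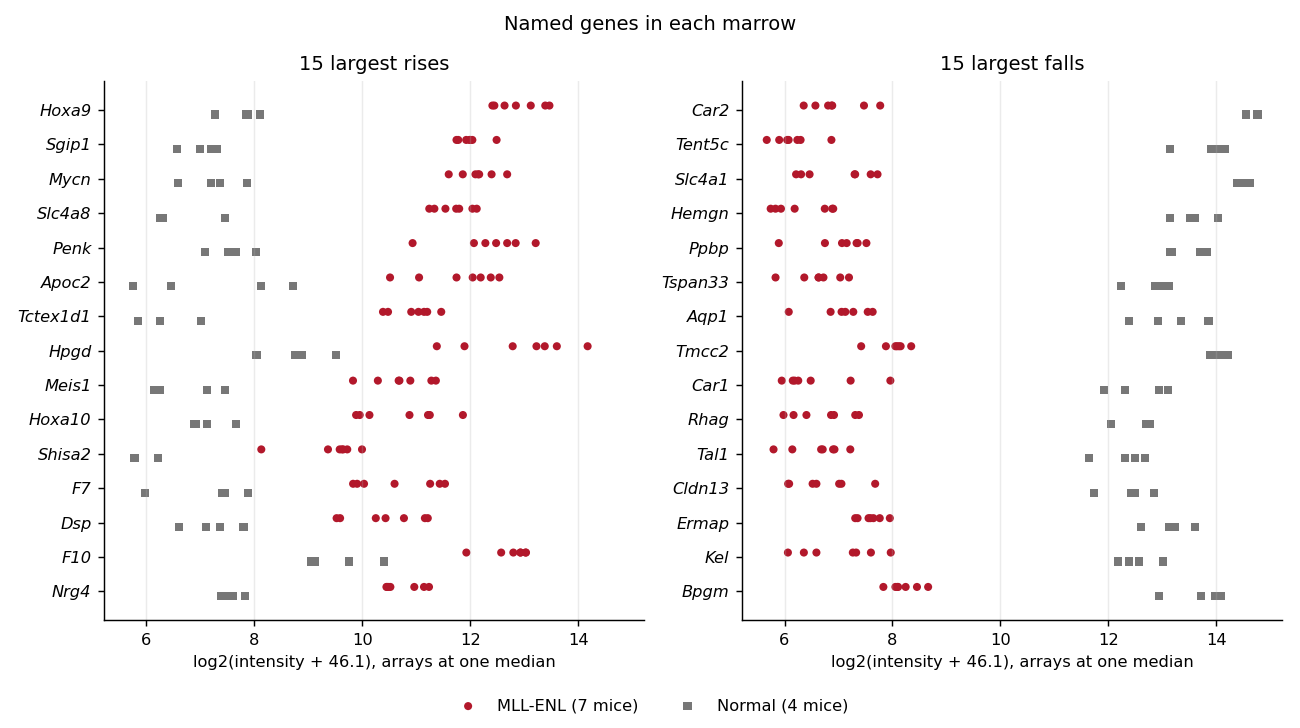
Levels, log2(intensity + 46.1) with all arrays at 1 median, of the 15 largest called rises (left) and 15 largest called falls (right) among autosomal genes whose groups did not overlap. Circles are the 7 MLL-ENL mice and squares the 4 Normal mice. In every row the circles lie to 1 side of all squares, and the falls span wider gaps than the rises, up to 7.74 for Car2.

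The genes that rose most formed a mixed company of homeobox regulators, an oncogenic transcription factor and secreted or membrane proteins. All 30 of the largest rises and falls lay beyond every Normal array in every MLL-ENL mouse, as their choice required, and all 30 kept their call in every one of the 24 other settings in which they were measured. Hoxa9, the homeobox factor that sustains progenitor self-renewal, ran from 12.41 over a median of 12.85 to 13.47 in the MLL-ENL mice, and was 8.11, 7.89, 7.27 and 7.84 in the Normal mice. Its difference of 5.12 ± 0.25 was the largest rise of the cohort on the scale used (34.9-fold, adjusted p = 8.83e-19). A dimmer Hoxa9 probe set gave 2.99, which was called. Sgip1 rose more than Hoxa9 with the mean of probe sets (5.06 against 4.06) and with a pseudocount of 16 (5.37 against 5.35). The order at the top thus depends on the setting. Meis1, the DNA-binding partner of Hoxa9, ran from 9.83 over 10.69 to 11.36 in MLL-ENL, against 7.12, 7.45, 6.14 and 6.26 in Normal marrow (3.97 ± 0.29, adjusted p = 1.31e-13). Mycn, a Myc family factor, ran from 11.60 over 12.15 to 12.68 in MLL-ENL, against 7.20, 7.87, 6.58 and 7.37 in Normal marrow (4.88 ± 0.35, adjusted p = 5.28e-14). A dimmer Mycn probe set had a difference of −0.71 and was not called, so the Mycn rise rests on 1 of 2 probe sets. The same held for the bicarbonate transporter Slc4a8, where the brightest probe set gave 4.82 ± 0.24 and the other 0.22.

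Neighbouring genes were found among these rises. Sgip1, an endocytosis adaptor, ran from 11.74 over 11.99 to 12.49 in MLL-ENL, against 7.00, 6.56, 7.31 and 7.19 in Normal marrow (4.98 ± 0.28, adjusted p = 6.42e-17), and all 3 of its probe sets rose. Tctex1d1, from which the RefSeq table sets it apart by 1 predicted gene, rose by 4.42 ± 0.25 with all 7 mice at 10.38 or more and no Normal mouse above 7.01. The genes of coagulation factors VII and X, F7 and F10, lie next to each other with 0 genes between them. F7 ran from 9.83 over 10.60 to 11.53 in MLL-ENL, against 5.98, 7.45, 7.87 and 7.40 in Normal marrow (3.48 ± 0.54, adjusted p = 2.69e-06). F10 ran from 11.93 over 12.93 to 13.03 in MLL-ENL, against 9.12, 9.75, 10.40 and 9.05 in Normal marrow (3.17 ± 0.29, adjusted p = 3.38e-11). The groups were apart in both genes. The other large rises were the enkephalin precursor Penk (4.78 ± 0.56), the apolipoprotein Apoc2 (4.52 ± 0.48), the prostaglandin-degrading enzyme Hpgd (4.13 ± 0.45), Shisa2 (3.55 ± 0.30), the desmosomal protein Dsp (3.20 ± 0.53) and the growth factor Nrg4 (3.17 ± 0.33). Dimmer Dsp probe sets gave 1.93, which was called, and 0.72, which was not.

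Known MLL fusion targets did not move as a block. Of 10 measured HoxA, Meis and Pbx genes, 8 were called higher and 1 lower, with a median difference of 2.40. Beside the 2 genes above, Hoxa10 (3.59 ± 0.34), Hoxa7 (2.65 ± 0.39), Hoxa5 (2.59 ± 0.35), Hoxa3 (2.21 ± 0.25) and Hoxa2 (1.14 ± 0.29) rose, as did Pbx3, a cofactor of Hox proteins (1.83 ± 0.42). Dimmer Hoxa3 probe sets gave 1.75 and 1.17, which were called, and 0.13, which was not. The call of Hoxa2 was lost with the second array set alone (adjusted p = 0.0549). Hoxa11, a posterior member of the cluster, lay at 7.26 to 8.11 in MLL-ENL and 7.23 to 7.99 in Normal marrow (0.15 ± 0.31, adjusted p = 0.733), and Pbx2 fell by 0.52 ± 0.17 (adjusted p = 0.0102), a call lost in 2 settings, one of them without Normal mouse 3. The 4 measured HoxB genes included 0 called by limma, and none had an unadjusted p under 0.05. Their differences were −0.76 for Hoxb2, −0.09 for Hoxb7, −0.02 for Hoxb3 and 0.00 for Hoxb4, each with overlapping groups. Hoxb2 was called in 2 of the 24 other settings, with only the MLL-ENL and Normal arrays and when the array set was a model term.

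Other targets listed for MLL fusions went both ways, 6 higher and 4 lower of 16, with a median of 0.18 that turns to −0.02 with the values as deposited. Cdk6, the kinase that drives progenitors through G1, ran from 13.63 over 14.00 to 14.23 in MLL-ENL, against 11.86, 11.60, 11.73 and 11.53 in Normal marrow (2.31 ± 0.19, adjusted p = 2e-12). Eya1, a transcriptional coactivator, rose by 2.52 ± 0.70 with 1 MLL-ENL mouse, at 7.13, inside the Normal range. Satb1, a chromatin organiser of lymphoid cells, fell by 2.74 ± 0.79, and Bcl11a, a zinc finger factor of B cell and globin programmes, by 2.21 ± 0.48. Dimmer Satb1 probe sets gave −2.01 and −1.67, which were called, and −0.55 and −0.09, which were not. Flt3, the receptor tyrosine kinase of early progenitors, was 6.93 to 9.41 in MLL-ENL and 8.90 to 9.05 in Normal marrow (−0.68 ± 0.56, adjusted p = 0.358). Mef2c, a factor raised in many MLL leukaemias, was likewise not called (0.44 ± 0.36, adjusted p = 0.354).

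Of 23 genes of MLL and ENL complexes 5 were higher and 4 lower, a share of 39.1% close to the 41.5% of all genes, with a median of 0.08 that is −0.13 with the values as deposited. Ell2, an elongation factor that plasma cells use heavily, ran from 6.11 over 6.93 to 8.09 in MLL-ENL, against 11.16, 10.62, 9.89 and 10.62 in Normal marrow (−3.65 ± 0.34, adjusted p = 7.79e-11). Mllt3, which encodes AF9, the close relative of ENL, ran from 5.86 over 6.78 to 7.50 in MLL-ENL, against 9.57, 9.32, 8.18 and 9.15 in Normal marrow (−2.25 ± 0.36, adjusted p = 3.52e-06). Both groups were apart in both genes. Mllt1 itself, part of which the virus carries, was 7.86 to 9.38 in MLL-ENL and 6.97 to 8.84 in Normal marrow (0.94 ± 0.34, adjusted p = 0.0224). A second Mllt1 probe set gave 0.17, and the call was lost in 5 of the 24 other settings, among them without Normal mouse 3 and without Normal mouse 4. Which part of the transcript the probes cover, and whether they read the viral copy, the sources used here do not say. Kmt2a (−0.14 ± 0.14), the histone methyltransferase gene Dot1l (0.04 ± 0.20) and Men1 (0.13 ± 0.27) were not called. A second Kmt2a probe set gave −0.78 and passed limma's adjusted p (0.00196), and Kmt2a was called lower after quantile normalization and with the mean of its probe sets.

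Of 21 regulators of blood progenitors 9 rose and 3 fell, with a median of 0.30 beside 0.23 for all genes, of whose calls 73.0% were rises. Gfi1, a repressor that guides granulocyte progenitors, ran from 10.93 over 11.88 to 12.41 in MLL-ENL, against 9.07, 9.82, 10.02 and 9.46 in Normal marrow (2.13 ± 0.37, adjusted p = 1.42e-05). Etv6 (1.61 ± 0.21), Myb (1.35 ± 0.19), Lyl1 (1.25 ± 0.17) and Erg (1.16 ± 0.25), all transcription factors of early progenitors, rose with no overlap between groups. The 3 that fell were Tal1 and Gfi1b, which also run the red cell and platelet programmes, and Hlf, whose call was lost with the second array set alone. Among receptors and surface markers 15 rose and 4 fell of 26, 73.1% called beside 41.5% of all genes. The Fc receptor gene Fcgr2b (1.88 ± 0.15), the lectin Cd93 (1.75 ± 0.34) and the macrophage growth factor receptor Csf1r (1.31 ± 0.24) were above every Normal mouse in all 7 leukaemias. The interleukin receptor genes Il6ra (2.10 ± 0.41) and Il3ra (1.75 ± 0.50) rose with overlapping groups. Kit, whose protein marked the transplanted cells, was 9.41 to 11.16 in MLL-ENL and 9.69 to 10.38 in Normal marrow (0.29 ± 0.37, adjusted p = 0.57). The erythropoietin receptor Epor fell by 3.06 ± 0.22, and the neutrophil growth factor receptor Csf3r by 1.28 ± 0.38, where the Csf3r call was lost with the second array set alone.

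Red cell genes fell furthest. In a list of membrane, globin and other red cell genes, 20 of 22 measured fell. The list median was −4.76 and stayed between −5.22 and −4.09 in the other settings. The list was chosen with earlier results of these data known and holds many of the deepest falls, among them Car2, Slc4a1 and Hemgn. Its count and median may therefore follow in part from its choice. Car2, a carbonic anhydrase, ran from 6.35 over 6.87 to 7.77 in MLL-ENL, against 14.75, 14.77, 14.55 and 14.75 in Normal marrow. Its difference of −7.74 ± 0.39 was the deepest of the cohort on the scale used (adjusted p = 2.94e-18). Over the settings Car2 reached −8.16 at its lowest and Tent5c, another of the deepest falls, −8.53, so this order depends on the setting. Slc4a1, the anion exchanger band 3, ran from 6.21 over 7.30 to 7.72 in MLL-ENL, against 14.51, 14.52, 14.38 and 14.63 in Normal marrow (−7.52 ± 0.37, adjusted p = 8.89e-19). Since the pseudocount limits how low a level can read, these folds understate the change of genes near the floor. The water channel Aqp1 (−6.05 ± 0.26), the Rh-associated glycoprotein Rhag (−5.85 ± 0.30), the blood group protein Kel (−5.51 ± 0.36) and the erythroid membrane protein Ermap (−5.55 ± 0.25) fell as well. The glucose transporter Slc2a1 was the 1 member called higher (0.82 ± 0.28), a call lost with the values as deposited, with the second array set alone and without Normal mouse 1. The probe set of Hba-a1, an alpha globin gene, read only 5.99 to 7.86 in Normal marrow and 6.51 to 8.13 in MLL-ENL, so it gives no view of globin.

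Haem synthesis followed, with 13 of 14 genes lower (median −2.51). The ferrochelatase Fech, which inserts iron, ran from 10.91 over 11.03 to 11.45 in MLL-ENL, against 14.48, 14.14, 13.53 and 14.41 in Normal marrow (−3.04 ± 0.19, adjusted p = 1.6e-15). Cpox (−3.30 ± 0.20), Alad (−3.07 ± 0.24) and the mitochondrial iron importer Slc25a37 (−3.27 ± 0.26) fell likewise. Alas1, the housekeeping form of the first enzyme of the pathway, was the exception. It ran from 12.28 over 13.13 to 13.80 in MLL-ENL, against 11.20, 11.64, 12.19 and 11.08 in Normal marrow (1.6 ± 0.29, adjusted p = 2.99e-05). Of 12 erythroid regulators 11 fell (median −3.09), among them Klf1 (−4.21 ± 0.23) and the GATA cofactor Zfpm1 (−4.33 ± 0.20), while Nfe2, which myeloid cells also express, was not called (−0.36 ± 0.16, adjusted p = 0.0733). Of 14 iron handling genes 8 fell and none rose, 57.1% called beside 41.5% of all genes. The falls included the transferrin receptor Tfrc (−2.32 ± 0.21) and the iron exporter Slc40a1 (−2.09 ± 0.46).

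The promoters of the deepest falls, which moved together, were read for AGATAA, a form of the letters that red cell GATA factors recognise. Other forms such as TGATAA were not searched, and TGATAA stands unmarked in the Hemgn and Kel windows below. TTATCA, its other strand, stands in the windows of Rhag and Ermap, which count here as without a match. RefSeq promoter windows (GRCm38.p6, 250 bases before to 50 after the start, the first window listed for a gene) were held for 11 of the 15 falls and 14 of the 15 rises. AGATAA on either strand (TTATCT on the other) stood in 3 of the 11 windows of falls and 1 of the 14 of rises, against 11.4% of 27025 mouse windows. The 3 windows with a match are those of Hemgn, an erythroid nuclear protein (chr4:46404134-46404433, minus strand), Tal1 (chr4:115056176-115056475, plus strand) and Kel (chr6:41704276-41704575, minus strand). They are printed to show where AGATAA lies, 5′ to 3′ on the gene's strand, with the match in capitals.
Hemgn: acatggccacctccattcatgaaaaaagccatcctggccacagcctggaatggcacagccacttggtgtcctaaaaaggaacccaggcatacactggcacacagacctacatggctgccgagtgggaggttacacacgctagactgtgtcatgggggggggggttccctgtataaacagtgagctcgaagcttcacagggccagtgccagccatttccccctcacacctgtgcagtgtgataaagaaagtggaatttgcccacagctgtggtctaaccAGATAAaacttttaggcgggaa
Tal1: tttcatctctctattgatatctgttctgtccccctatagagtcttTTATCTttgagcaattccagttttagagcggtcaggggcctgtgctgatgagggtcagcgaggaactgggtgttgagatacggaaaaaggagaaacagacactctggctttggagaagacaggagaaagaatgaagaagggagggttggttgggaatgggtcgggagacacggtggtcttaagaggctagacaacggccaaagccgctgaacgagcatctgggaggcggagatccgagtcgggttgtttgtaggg
Kel: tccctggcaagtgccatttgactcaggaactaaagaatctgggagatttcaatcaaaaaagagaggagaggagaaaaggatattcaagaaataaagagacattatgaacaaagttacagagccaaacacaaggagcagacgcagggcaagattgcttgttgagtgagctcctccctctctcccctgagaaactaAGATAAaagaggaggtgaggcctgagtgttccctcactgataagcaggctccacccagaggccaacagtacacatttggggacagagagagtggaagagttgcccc
Counted from the start, the match begins at 29 in Hemgn, at −205 in Tal1 and at −56 in Kel. With so few windows the shares are a description only. CCNCNCCC, the letters read by Krüppel-like factors such as Klf1, stood in 6 of 11 windows of falls and 12 of 14 of rises, against 49.1% of all windows. TGACAG, a core read by Meis proteins, stood in 0 of 11 and 3 of 14 (Sgip1, Mycn and Hpgd), against 19.3%, and the E-box CACGTG, read by Myc proteins, in none of either, against 7.24%. Hemgn ran from 5.74 over 6.19 to 6.90 in MLL-ENL, against 14.03, 13.51, 13.14 and 13.61 in Normal marrow (−7.25 ± 0.29, adjusted p = 2.65e-21). Tal1 ran from 5.8 over 6.71 to 7.22 in MLL-ENL, against 12.69, 12.32, 11.65 and 12.50 in Normal marrow (−5.66 ± 0.33, adjusted p = 1.56e-16).

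Megakaryocyte and lymphoid genes fell too. Of 18 platelet genes 14 fell and 1 rose (median −1.95). Ppbp, a platelet chemokine, ran from 5.89 over 7.15 to 7.52 in MLL-ENL, against 13.71, 13.83, 13.18 and 13.15 in Normal marrow (−6.46 ± 0.31, adjusted p = 5.94e-19), and Pf4 (−4.69 ± 0.26) and Vwf (−3.85 ± 0.35) followed. Of 17 early B lineage genes 16 fell and none rose (median −2.79). Rag1, the recombinase that assembles antigen receptors, ran from 5.72 over 6.00 to 7.03 in MLL-ENL, against 10.74, 11.04, 9.96 and 10.77 in Normal marrow (−4.37 ± 0.27, adjusted p = 9.7e-16). The receptor component Cd79a fell by 4.35 ± 0.35 and the coactivator Pou2af1 by 4.05 ± 0.32. Of 17 mature B and plasma cell genes 13 fell, led by Spib (−4.38 ± 0.28), and Xbp1, a factor of secretory cells, rose (1.04 ± 0.17). Of 16 T and NK cell genes 12 fell and none rose (median −1.0), including Cd3d, which spread from 7.62 to 11.25 among the Normal mice and lay at 5.84 to 6.36 in MLL-ENL. The cytotoxic granule gene Nkg7 was 11.15 in mouse MLL-ENL_774 and 8.21 to 9.25 in the other 6.

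**Figure D2:**
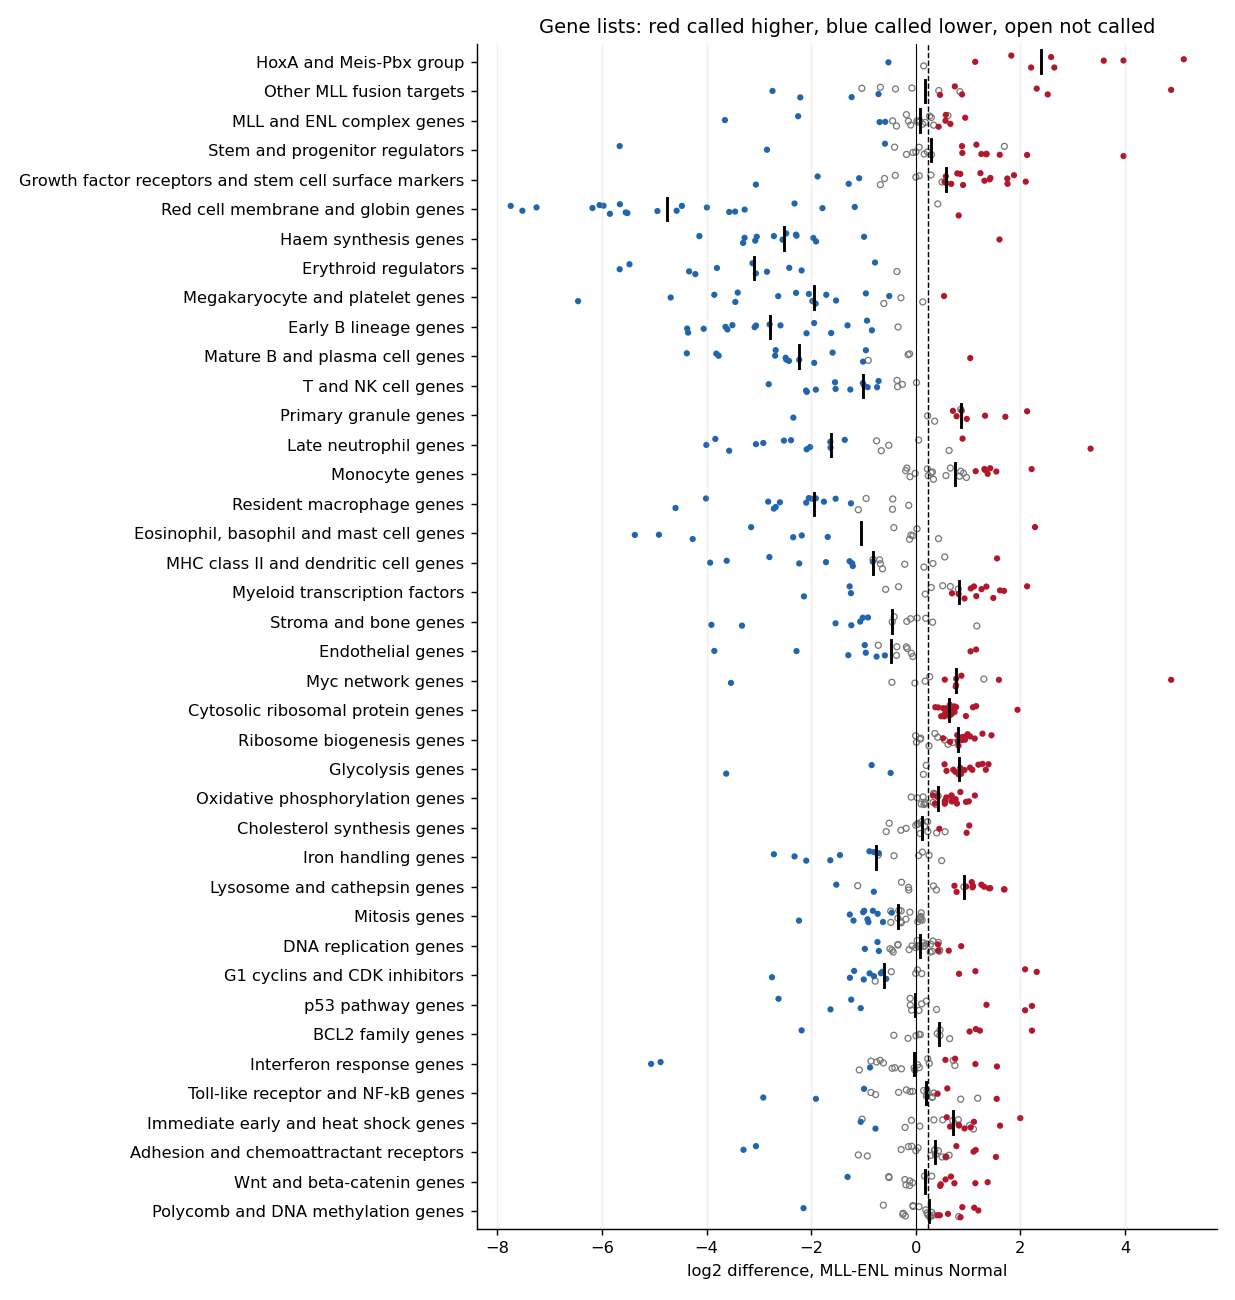
Differences, MLL-ENL minus Normal on the log2 scale, of the measured members of the lists with 10 or more measured genes. Filled points passed the adjusted p, open points did not, black ticks are list medians, and the dashed line is the median of all 12853 genes, 0.23. Red cell, haem, erythroid and B lineage lists lie far to the left, the HoxA and Meis-Pbx list far to the right, and ribosomal protein genes form a narrow cluster with a median of 0.63.

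Of 11 primary granule genes, which promyelocytes express, 7 rose and 1 fell (median 0.86). The granule proteases Ctsg and Prtn3 rose by 1.71 ± 0.27 and 1.32 ± 0.19. Ctsg ran from 14.24 over 14.71 to 14.93 in MLL-ENL, against 12.47, 12.94, 13.58 and 12.83 in Normal marrow. Mpo, the myeloperoxidase, was high in both groups, 14.24 to 15.39 in MLL-ENL and 14.33 to 15.21 in Normal marrow (0.23 ± 0.23, adjusted p = 0.457). Of 19 late neutrophil genes 12 fell, 2 rose and 5 were not called (median −1.63), and with the second array set alone 7 fell. Ltf, the lactoferrin of secondary granules, ran from 9.96 over 10.83 to 12.76 in MLL-ENL, against 14.70, 14.83, 15.29 and 14.93 in Normal marrow (−4.00 ± 0.75, adjusted p = 4.87e-05). Mmp8, the neutrophil collagenase, ran from 9.65 over 9.96 to 10.90 in MLL-ENL, against 13.65, 14.15, 14.34 and 13.68 in Normal marrow (−3.83 ± 0.53, adjusted p = 3.71e-07). The chemokine receptor Cxcr2 fell by 3.06 ± 0.62. S100a8 and S100a9, calcium-binding proteins that myeloid cells carry in bulk, were not called (−0.75 ± 0.43 and −0.52 ± 0.45, adjusted p = 0.166 and 0.386).

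Of 22 myeloid transcription factors 12 rose and 3 fell (median 0.82), beside 30.3% of all genes called higher and 11.2% lower. Cebpa, which commits progenitors to granulocytes and monocytes, ran from 12.38 over 12.73 to 13.003 in MLL-ENL, against 10.62, 11.47, 11.22 and 10.66 in Normal marrow (1.69 ± 0.28, adjusted p = 7.63e-06). Spi1, which encodes PU.1, rose by 0.69 ± 0.17 with overlapping groups, and Id3, an inhibitor of B cell factors, fell by 2.14 ± 0.36. Eosinophil, basophil and mast cell genes were lower in 7 and higher in 1 of 14 (median −1.05). The peroxidase Epx fell by 4.91 ± 0.41, but Siglecf, an eosinophil surface lectin, rose by 2.28 ± 0.47 with all 7 mice above all 4 Normal mice.

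Of 22 monocyte genes 7 rose and none fell (median 0.75), and their 31.8% is near the 30.3% of all genes called higher, so the count says nothing particular to monocyte genes. Ms4a6c ran from 12.999 over 13.33 to 13.86 in MLL-ENL, against 9.95, 11.88, 11.89 and 10.87 in Normal marrow (2.22 ± 0.31, adjusted p = 3.44e-07). A dimmer Ms4a6c probe set gave 0.06 and was not called. The scavenger receptor Cd68 (1.42 ± 0.23) and the macrophage surface receptor Adgre1 (1.37 ± 0.19) rose as well. Of 21 lysosomal genes 12 rose and 2 fell (median 0.92, 66.7% called beside 41.5% of all genes), led by Gusb (1.70 ± 0.22) and Ctsa (1.69 ± 0.23). A dimmer Ctsa probe set gave 0.24 and was not called. Of 18 genes of resident macrophages 13 fell and none rose (median −1.95). The complement gene C1qa, a marker of macrophages that sit in tissue, ran from 6.04 over 6.14 to 6.50 in MLL-ENL, against 11.57, 11.45, 9.74 and 10.37 in Normal marrow (−4.59 ± 0.44, adjusted p = 1.41e-10). The mannose receptor Mrc1 fell by 2.82 ± 0.26. Without mouse MLL-ENL_742 the monocyte genes called higher were 10.

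Of 18 class II and dendritic cell genes 9 fell, 1 rose and 8 were not called (median −0.82). Cd74, the chaperone of class II molecules, ran from 8.82 over 9.47 to 10.26 in MLL-ENL, against 13.10, 13.57, 13.54 and 13.44 in Normal marrow (−3.93 ± 0.54, adjusted p = 3.36e-07). H2-Aa (−3.62 ± 0.54) and H2-Eb1 (−2.80 ± 0.47), which encode class II chains, and Ciita, their master activator (−0.82 ± 0.25), fell with it. A dimmer Ciita probe set gave −0.75 and was not called. H2-DMa, which helps load peptides, rose instead. It ran from 11.18 over 11.73 to 12.34 in MLL-ENL, against 10.37, 10.27, 10.15 and 9.96 in Normal marrow (1.55 ± 0.30, adjusted p = 6.19e-05).

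Of 15 stroma and bone genes 7 fell and none rose (median −0.45), 46.7% called, all lower, beside 11.2% of all genes called lower. Cxcl12, the chemokine by which stromal cells hold progenitors, ran from 6.76 over 8.15 to 8.74 in MLL-ENL, against 11.89, 11.99, 11.61 and 11.46 in Normal marrow (−3.91 ± 0.44, adjusted p = 4.59e-09). Dimmer Cxcl12 probe sets gave −4.57, which was called, and −0.16, which was not. The fat cell hormone Adipoq fell by 3.32 ± 0.39. Of 16 endothelial genes 7 fell and 2 rose, 56.2% called beside 41.5% of all genes. Vwf, a platelet gene as well, was furthest down. Pecam1 and Stab1, which rose by 1.05 ± 0.32 and 1.15 ± 0.33, are carried by myeloid cells as well as by vessels, and the Stab1 call was lost with the second array set alone.

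Of 26 cytosolic ribosomal protein genes 25 rose and none fell, with a median of 0.63 beside 0.23 for all genes. Rpl37 stood out, from 12.96 over 13.12 to 13.31 in MLL-ENL, against 11.13, 11.23, 11.41 and 10.89 in Normal marrow (1.95 ± 0.17, adjusted p = 1.07e-11). The scaling weighs on so small a shift: after quantile normalization the median was 0.22 and 13 of these genes were called higher. Without the probe sets whose ID marks possible cross-hybridisation 8 were, but fewer genes are measured then (11253 in all, against 12853). The only kept probe set of Rpl37 carries such a mark, so Rpl37 was not measured there. Of 27 ribosome biogenesis genes 17 rose and none fell (median 0.80), led by Rrs1 (1.45 ± 0.23) and Nop16 (1.28 ± 0.28). In the Myc network 7 of 13 rose and 1 fell, 61.5% called beside 41.5% of all genes. Myc itself ran from 10.58 over 11.51 to 12.61 in MLL-ENL, against 10.03, 10.23, 10.01 and 9.56 in Normal marrow (1.59 ± 0.37, adjusted p = 0.000755). Mxd1, a Myc antagonist of maturing cells, ran from 8.56 over 9.24 to 10.23 in MLL-ENL, against 12.80, 13.44, 13.03 and 12.20 in Normal marrow (−3.53 ± 0.33, adjusted p = 7.06e-11). Max, the partner of both, is read by a probe set that followed the array sets, 10.22 to 10.84 in the 4 mice of the first and 6.99 to 7.66 in the 3 of the second, and is not interpreted.

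Of 19 glycolysis genes 14 rose and 3 fell (median 0.82). Pgam1 (1.39 ± 0.17) and Tpi1 (1.34 ± 0.17), enzymes of the lower and middle pathway, rose without overlap. The glucose transporter Slc2a3, which neutrophils use, fell instead. It ran from 9.03 over 9.41 to 11.15 in MLL-ENL, against 13.29, 13.51, 13.76 and 13.31 in Normal marrow (−3.62 ± 0.57, adjusted p = 3.01e-06). Of 31 oxidative phosphorylation genes 18 rose and none fell (median 0.43, and 0.12 after quantile normalization), with cytochrome c, Cycs, at 1.13 ± 0.17. Of 17 cholesterol synthesis genes 3 rose and none fell (17.6% called, beside 41.5% of all genes).

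Of 27 mitosis genes none rose and 11 fell (median −0.34). The 40.7% called, all lower, stands beside 41.5% of all genes called and 11.2% called lower. The median was −0.55 with the values as deposited and −0.68 by quantile normalization, and 8 to 19 genes were called lower over the other settings. Mki67, the proliferation antigen, ran from 12.65 over 12.94 to 13.18 in MLL-ENL, against 14.02, 13.78, 13.69 and 14.09 in Normal marrow (−0.99 ± 0.18, adjusted p = 4.76e-05). The phosphatase Cdc25b (−2.23 ± 0.18) and the ubiquitin-conjugating enzyme Ube2c (−1.26 ± 0.22) fell too. Of 31 DNA replication genes 4 rose and 3 fell, 22.6% called beside 41.5% of all genes. Their median of 0.09 turned to −0.11 as deposited, and the ribonucleotide reductase subunit Rrm2 fell by 0.97 ± 0.16. Of 18 G1 regulators 4 rose and 9 fell (median −0.60). Beside Cdk6 the inhibitor Cdkn1a, which encodes p21, rose. It ran from 10.12 over 10.67 to 10.99 in MLL-ENL, against 8.70, 8.52, 8.59 and 8.22 in Normal marrow (2.09 ± 0.23, adjusted p = 3.38e-09). E2f2, a factor of dividing red cell precursors, fell by 2.75 ± 0.32, and cyclin E1, Ccne1, by 1.26 ± 0.24. The groups were fully apart in these 4 genes.

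Among 14 p53 pathway genes 3 rose and 4 fell (median −0.01). The cell death gene Pmaip1 ran from 8.96 over 10.09 to 10.74 in MLL-ENL, against 7.62, 7.95, 7.70 and 7.62 in Normal marrow (2.22 ± 0.32, adjusted p = 8.03e-07), and Ccng1 rose by 1.35 ± 0.25. Gadd45a, a stress-induced growth arrest gene, fell by 2.62 ± 0.38. In the BCL2 family 4 rose and 1 fell of 14, a called share of 35.7% beside 41.5% of all genes, and the one that fell was Bcl2l1, the survival factor of red cell precursors (−2.18 ± 0.19). Among 23 interferon response genes 4 rose and 3 fell, 30.4% called and so below the 41.5% of all genes. Rsad2 and Isg20, antiviral genes, dropped by 5.06 ± 0.35 and 4.88 ± 0.29 while Gbp3 rose by 1.55 ± 0.33 and Ifit1 barely passed (−0.87 ± 0.36, adjusted p = 0.0482). Of 23 polycomb and DNA methylation genes 34.8% were called, below the 41.5% of all genes, 7 higher and 1 lower, among them the DNA demethylase Tet2 (1.20 ± 0.18) and the polycomb cofactor Jarid2 (1.12 ± 0.13), against a fall of the polycomb protein gene Cbx6 (−2.15 ± 0.37).

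Set against the mean of the 4 other MLL leukaemias, MLL-ENL marrow differed in far fewer genes, 639 of 12853 (4.97%), 476 higher (3.7%) and 163 lower (1.27%). Of these 450 were also called against Normal marrow, and both comparisons use the same 7 MLL-ENL arrays. The count was sensitive to the arrays: it was 66 with the second array set alone, where 3 MLL-ENL mice remain, and 271 without mouse MLL-ENL_741, 330 without MLL-ENL_703, 366 without MLL-ENL_760 and 403 without MLL-ENL_701. The largest rise was that of Rhoj, a small GTPase, which ran from 8.78 over 10.35 to 10.69 in MLL-ENL against a mean of 8.14 in the other cohorts (2.04 ± 0.23, adjusted p = 8.01e-07) and lay at 8.24, 8.49, 8.27 and 8.07 in Normal marrow. Il22ra2, a decoy receptor for interleukin 22, followed (1.97 ± 0.28, adjusted p = 5.1e-05), then Dusp6 (1.59 ± 0.31), F7 (1.56 ± 0.37) and Spsb4 (1.47 ± 0.26). The largest falls were Mmp8 (−2.02 ± 0.36), H2-Aa (−1.84 ± 0.36), Flt3 (−1.83 ± 0.38), Eml5 (−1.82 ± 0.34) and Arap2 (−1.79 ± 0.32). The fall of Mmp8 is against a mean of unlike cohorts, since the MLL-ENL mice, at 9.65 to 10.90, overlapped the MLL-AF9 mice, whose mean was 10.60. Rhoj, Il22ra2 and Arap2 kept their call in all settings run. Cdkn1a, already above Normal marrow, was also above the other cohorts (1.03 ± 0.16, adjusted p = 0.000151).

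In the list of 21 immediate early and heat shock members, 9 were called higher than in the other cohorts and none lower. Of all genes 3.7% were called higher, and the list median was 0.59 beside 0.09 for all genes. The list was chosen with earlier results of these data known and includes signalling inhibitors such as Dusp6 and Spry2. Its count is therefore a description only. Dusp6, the phosphatase that switches ERK off, ran from 9.65 over 11.70 to 11.87 in MLL-ENL, against cohort means of 9.77 with the AF1p fusion, 9.44 with AF10, 10.08 with GAS7 and 9.46 with AF9. In Normal marrow it was 10.78, 10.10, 9.77 and 10.34, so that against Normal marrow it missed the threshold (1.03 ± 0.45, adjusted p = 0.0668). Spry2, an inhibitor of growth factor signalling, was above both. It ran from 9.99 over 10.20 to 10.46 in MLL-ENL, against a mean of 9.36 in the other cohorts (0.84 ± 0.18, adjusted p = 0.00428) and 8.21, 8.67, 8.32 and 7.59 in Normal marrow (2.0 ± 0.26, adjusted p = 8.86e-08). A dimmer Spry2 probe set gave −0.71 against Normal marrow and was not called. Egr1, an early response factor, ran from 8.16 over 9.76 to 10.25 in MLL-ENL, against a mean of 8.18 in the other cohorts (1.41 ± 0.26, adjusted p = 0.00098). Spred1 (0.86 ± 0.26), Jun (0.76 ± 0.20), Dusp2 (0.66 ± 0.17), Hsph1 (0.81 ± 0.22), Hspa1b (1.08 ± 0.33) and Hsp90aa1 (0.42 ± 0.13) made up the 9. Of 23 other settings run, Hsp90aa1 lost this call in 17, and Spred1 and Hspa1b in 14 each. Mouse MLL-ENL_742 was the lowest of the 7 in Dusp6 and Egr1. Without it 6 of the list were called higher, leaving out other single mice gave 4 to 6, and none was called with the second array set alone, where the list median was 0.46.

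**Figure D3:**
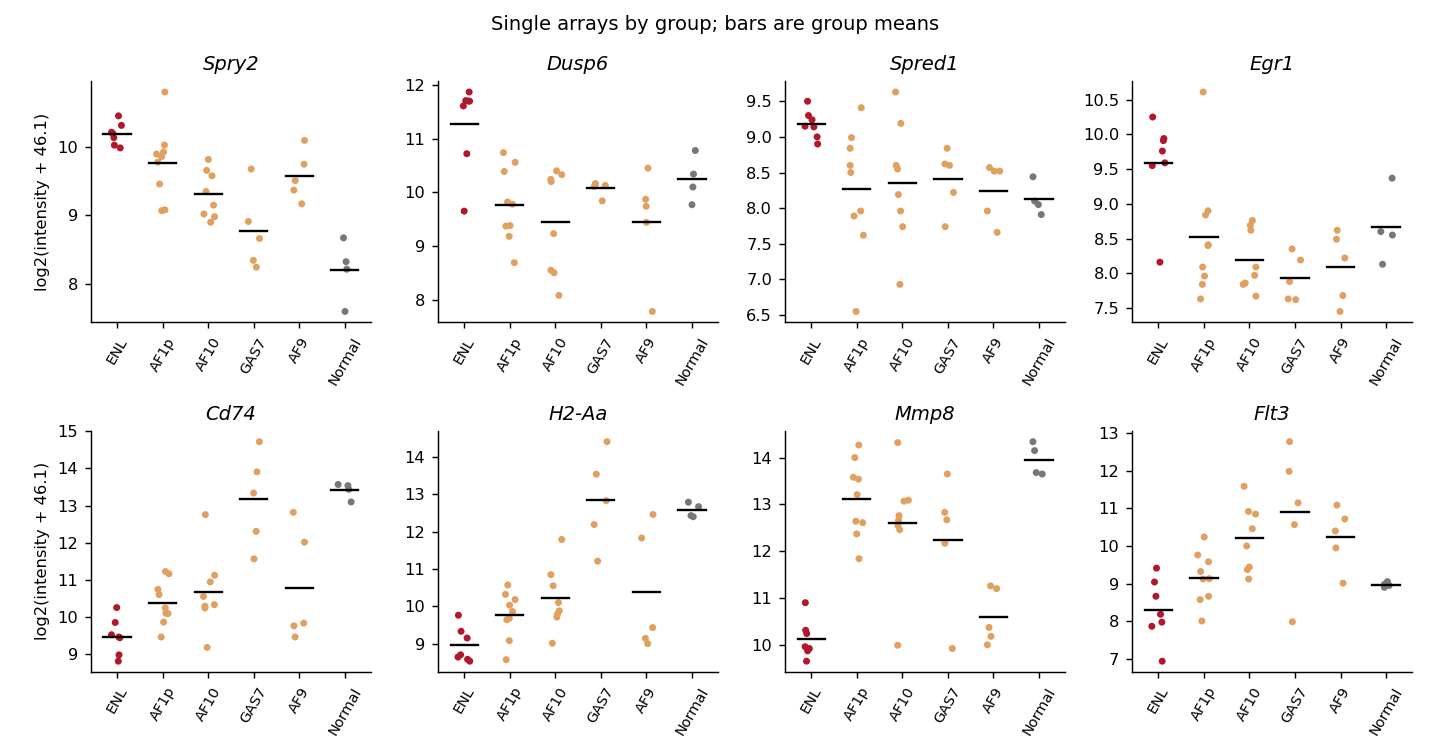
Levels, log2(intensity + 46.1), of 8 genes in single arrays by group, with the MLL-ENL mice at the left, the other 4 MLL cohorts next and Normal marrow at the right, and bars at the group means. In Dusp6 and Egr1 6 of the 7 MLL-ENL points lie above nearly all other leukaemias with mouse MLL-ENL_742 below them, and in Cd74, H2-Aa and Mmp8 MLL-ENL has the lowest group mean.

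Of the 18 class II and dendritic cell genes 6 were called lower in MLL-ENL than in the other cohorts, none higher and 12 not called. Of all genes 1.27% were called lower, and the list median was −0.37 beside 0.09 for all genes. This list too was chosen with earlier results of these data known, so its count is a description only. The cohort means of Cd74 were 9.48 in MLL-ENL, against 10.40 with the AF1p fusion, 10.68 with AF10, 13.17 with GAS7 and 10.78 with AF9 (−1.78 ± 0.37, adjusted p = 0.00425), with MLL-GAS7 furthest from MLL-ENL. Of the 5 MLL-AF9 mice, 3 lay at 9.47, 9.77 and 9.84, inside the MLL-ENL range of 8.82 to 10.26. Inside it too were MLL-AF1p mice at 9.47, 9.87, 10.1, 10.11 and 10.25 and MLL-AF10 mice at 9.19 and 10.25. H2-Aa, H2-Eb1 (−1.36 ± 0.32), H2-Ob (−0.79 ± 0.20), H2-Oa (−0.95 ± 0.22) and Flt3 were the others called lower. Mice of other cohorts overlapped the MLL-ENL mice in H2-Aa and Flt3 as well. Among them were MLL-AF1p mice at 8.57 and 9.08 in H2-Aa, and at 8.57 and 8.66 in Flt3. Leaving out single MLL-ENL mice gave 5 or 6 such calls, and the second array set alone gave 1.

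Among themselves the 7 MLL-ENL mice differed little in most genes, with a median SD of 0.28 beside 0.27 among the 4 Normal mice. Between 98.3% and 99.8% of the 5338 called genes lay, in each mouse, on the cohort's side of the Normal median. These genes were called with the same mice, so such a share follows largely from their choice. The genes of largest SD were Rps4l, Prg2, Prg3, Ifi213, Stfa2l1, Sox4, E2f5, Tcf4, Ikzf2 and Stfa3. Rps4l, a ribosomal protein gene copy, was on in 3 mice, at 10.82, 10.74 and 8.82, and at 5.68 to 5.78 in the other 4. Prg2 and its neighbour Prg3, which encode eosinophil granule proteins, were highest in mouse MLL-ENL_742. In that mouse Prg2 stood at 13.64 and Prg3 at 11.96, while the other 6 mice had 6.70 to 9.09 of Prg2 and 6.16 to 8.70 of Prg3, and the Normal mice had 13.72 to 14.28 of Prg2. The stefin gene Stfa3 rose in the cohort (3.34 ± 0.95, adjusted p = 0.00455), with overlapping groups and its call lost in the second array set alone (adjusted p = 0.0757), and spread from 9.18 in mouse MLL-ENL_742 to 14.05 in mouse MLL-ENL_701. Sox4, a factor of immature cells, reached 13.76 in mouse MLL-ENL_774 and was 8.15 to 11.28 in the others.

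Mouse MLL-ENL_742, which stood apart in the most genes, differed from the other 6 in some lists and lay among them in others. These differences of 1 mouse were not tested. Its median over the monocyte genes was −0.46 relative to the Normal median, against 0.49 to 1.28 in the other 6 mice. Over the myeloid transcription factors it was 0.07, against 0.84 to 1.17, and over the immediate early genes −0.07, against 0.64 to 0.89. Its late neutrophil median was the lowest, −2.79 against −2.21 to −0.56, and its ribosome biogenesis median the highest, 1.20 against 0.55 to 0.86. Its HoxA and Meis-Pbx median of 2.96 was the highest of the 7, and its red cell median of −4.70 lay inside the range of the others. Leaving it out gave 5233 called genes, 5055 of them among the 5338.

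**Figure D4:**
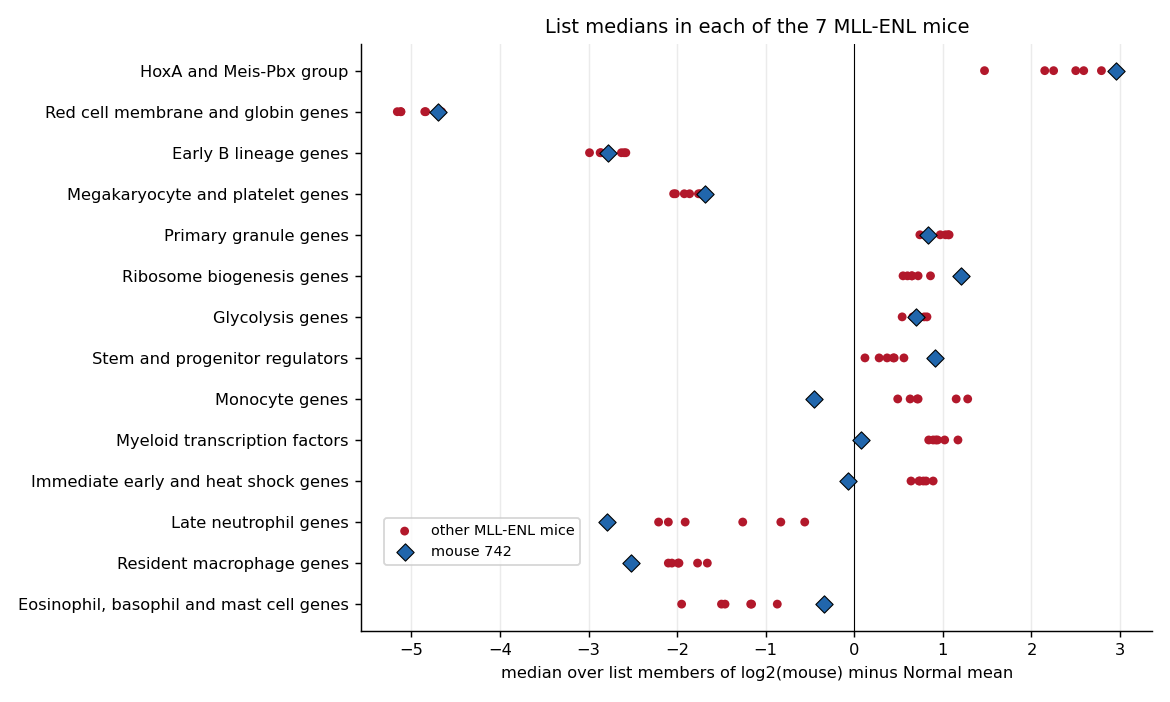
Median over a list's members of each mouse's log2 level minus the Normal median, which the axis labels as the mean, for 14 lists in each MLL-ENL mouse. Diamonds are mouse MLL-ENL_742 and circles the other 6, and MLL-ENL_742 lies apart in the monocyte, myeloid factor and immediate early lists and among the others in the red cell, B lineage and primary granule lists.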

How the data were processed

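Whole marrow RNA, labelled with biotin by an IVT kit per the labels' protocols, was measured on 38 one-colour Affymetrix mouse arrays, 1 per mouse. The authors deposited linear intensities scaled so that the mean after trimming 2% at each end is 500 on every array, as the values show, and the labels name no software for them. Values became log2(intensity + 46.1), the added number being the 25th percentile of all values. Array medians spanned 0.537, above a limit of 0.5, so arrays were shifted to 1 median. Of 45101 probe sets 64 were controls, 34958 carried 1 gene symbol in the platform annotation, 932 several and 9147 none, and 34754 of those with 1 symbol matched RefSeq. Probe sets above their array's median on at least 4 arrays were kept (29041, of which 23915 carry 1 symbol), and the one with the highest mean stood for its gene. The number of arrays limits the precision.

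Limma 3.58.1 in R 4.3.3 fitted 6 group means over all 38 arrays (32 residual degrees of freedom), and p-values were adjusted by Benjamini-Hochberg over 13334 genes. Tables and figures were made with Python 3.11.15, and exact permutation tests with scipy 1.17.1. The fit was also run on simulated data without array sets or a shared shift, so that run says nothing about those here. The members and gene lists were chosen with earlier results of these data known, and lists share members. Genes named are the 15 largest called rises and falls with groups apart, called list members of the largest change with members that did not pass, the 5 largest rises and falls against the other cohorts, and the 10 genes of largest SD among the MLL-ENL mice. Alternatives were the scaling, pseudocount, filter, probe set rule, samples in the fit, array weights and each mouse left out. The array sets were found in the values, and the fits on them were chosen after seeing the data.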

Additional observations from a re-analysis of the deposited data

Results flagged for a closer look

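A mouse stood apart from its group, by Dixon's 95% critical value, in 20 of 344 groups checked over 172 named genes, a share of 5.81% where chance alone gives about 1 in 20. Mouse MLL-ENL_742 accounts for 5 of the 10 in MLL-ENL, at 8.13 for Shisa2, 11.93 for F10 and 8.16 for Egr1, below its group, and at 13.64 for Prg2 and 9.65 for Epx, above it. In other MLL-ENL mice Sgip1 was high in mouse MLL-ENL_741 (12.49), Nkg7 was high in MLL-ENL_774 (11.15), Cd79a was low in MLL-ENL_702 (6.00), and Rhoj (8.78) and Prtn3 (14.70) were low in MLL-ENL_701. Among the Normal mice number 1 was high for Hoxa7 (6.35) and Pbx3 (8.89). Normal mouse 3 was low for Car2 (14.55), Rhag (12.05) and Rrm2 (13.46) and high for Stfa3 (9.70). Normal mouse 4 was high for Shisa2 (6.22) and low for Eml5 (6.02), Cd68 (10.36) and Ctsa (10.98).

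The difference between MLL-ENL and the mean of the other 4 MLL cohorts, which is also the difference between their changes from the shared Normal arrays, passed limma's adjusted p in 33 named genes. Those of signalling and stress were Dusp6 (1.59), Egr1 (1.41), Hspa1b (1.08), Spred1 (0.86), Spry2 (0.84), Hsph1 (0.81), Jun (0.76), Dusp2 (0.66) and Hsp90aa1 (0.42). Also higher were Rhoj (2.04), Il22ra2 (1.97), F7 (1.56), Spsb4 (1.47), Shisa2 (1.41), Cdkn1a (1.03), Hoxa7 (0.94), Nrg4 (0.84), Gbp3 (0.75), Erg (0.74), Ccng1 (0.70), Rrs1 (0.56) and Cpox (0.48). Lower were Mmp8 (−2.02), H2-Aa (−1.84), Flt3 (−1.83), Eml5 (−1.82), Arap2 (−1.79), Cd74 (−1.78), H2-Eb1 (−1.36), Mef2c (−1.15), H2-Oa (−0.95), Ell2 (−0.90) and H2-Ob (−0.79). Of the 33, 29 lost their call with the second array set alone.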

How the results depend on the processing

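Against Normal marrow the count of called genes was 4359 to 6175 in all settings, beside 5338, and 4644 to 5245 when 1 mouse was left out. Of 142 called genes among the 172 named, 128 kept their call in every setting in which they were measured and 14 lost it in some, most often Ifit1 (15 settings) and Egr1 (14). None of these 142 reversed its direction, while over all called genes the sign differed in at most 88, without the probe sets whose ID marks possible cross-hybridisation. Against the other cohorts the count of 639 was less stable: 1311 with array weights, 246 with the 4 MLL-ENL mice of the first array set, 66 with the second array set alone, and 271 to 622 with 1 mouse left out, the lowest without mouse MLL-ENL_741. Fewer arrays enter the 246 and 66, and the cause was otherwise not tested. With 3′ to middle ratios in place of 3′ to 5′, the actin difference was 0.06 (exact permutation p = 0.182, beside 0.13) and that of Gapdh −0.16 (exact permutation p = 0.00606, beside −0.08). No paired analysis was possible because the MLL-ENL and Normal arrays share no replicate numbers. The median shift raises all differences together, so small changes such as those of ribosomal proteins depend on it, and genes near the pseudocount have understated folds.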
